A study of Mus musculus with 40 samples.

Results

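The replication-dependent histone genes are the clustered genes that supply most of the histone protein for newly copied DNA. They were taken here as every protein-coding gene of the deposited table whose name starts with Hist1h, Hist2h, Hist3h or Hist4h, which gave 67 of 54532 genes. The Hist1 cluster on chromosome 13 held 54 of them, between 21715763 and 23934851 on GRCm38. Chromosome 3 held 10 Hist2 genes, chromosome 11 held 2 Hist3 genes and chromosome 6 held 1 Hist4 gene. By protein, 6 genes encode the linker histone H1, 18 encode H2A, 18 encode H2B, 12 encode H3 and 13 encode H4.

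Histones H2A, H2B, H3 and H4 form the protein core around which DNA is wound, and H1 binds the DNA as it enters and leaves that core. Transcripts of the clustered genes usually end just after a short stem-loop in place of a poly-A tail. The stem-loop binding protein Slbp recognises this structure, and the transcripts normally build up while a cell copies its DNA and are removed afterwards. Some of these genes can also give a longer, polyadenylated transcript, which is known from cells that have stopped dividing or are differentiating. The libraries were made from RNA bound to poly-T beads, so the levels below are those of polyadenylated forms and not of all histone transcripts. Blood holds mainly cells that no longer divide, among them red cells and platelets without a nucleus.

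RNA from the blood of 40 mice was sequenced after pristane, a mineral-oil component used to induce a lupus-like disease in mice, in relation to the polyamine spermine and to the type I interferon receptor gene Ifnar1. The mice were female and 7 weeks old, and the blood came from the venous plexus behind the eye. Uninduced mice were either Ifnar1+/+ (3 mice) or labelled Ifnar1-/- (3 mice), and their labels name no pretreatment. Ifnar1+/+ mice received PBS or spermine for 3 days and then pristane, and were bled on day 4 or day 6 (6 mice in each of 4 groups). Mice labelled Ifnar1-/- received PBS and then pristane and were bled on the same days (5 mice in each of 2 groups). Against uninduced mice, effects of pristane and of the PBS before it cannot be told apart. Strain and the design of the Ifnar1 allele are not given in the sources used here.

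The stem-loop sequences of the members on which the results turn are shown first, because they mark where the usual transcript without a poly-A tail would end. They come from GENCODE M21 transcripts on GRCm38, in the sense direction, with the 16 bases of the stem-loop in capitals and up to 5 flanking bases on each side in lower case.

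Hist1h1c, chr13:23739507-23739532, plus strand: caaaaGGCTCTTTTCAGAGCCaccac

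Hist1h2ac, chr13:23683472-23683497, minus strand: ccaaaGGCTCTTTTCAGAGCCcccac

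Hist1h2bp, chr13:21787918-21787943, plus strand: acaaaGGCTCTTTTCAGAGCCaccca

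Hist3h2ba, chr11:58949344-58949369, plus strand: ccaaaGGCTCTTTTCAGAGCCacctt

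Hist1h4i, chr13:22040961-22040986, minus strand: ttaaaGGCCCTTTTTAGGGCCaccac

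Hist1h4m, chr13:21812124-21812147, plus strand: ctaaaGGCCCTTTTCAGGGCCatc

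Hist1h4n, chr13:21831793-21831818, minus strand: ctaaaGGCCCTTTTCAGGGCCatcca

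A stem-loop of this pattern was found in an annotated transcript of 46 of the 67 members. The form in Hist1h1c, Hist1h2ac, Hist1h2bp and Hist3h2ba was the most frequent, with 26 genes, and it occurred in genes of H1, H2A, H2B and H3. Every match in an H4 gene had another form, and the form in Hist1h4m and Hist1h4n was found in 7 of them.

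By the deposited coordinates, which equal GENCODE M21, Hist1h1c (ENSMUSG00000036181, a linker histone gene) lies at chr13:23738808-23740367 on the plus strand. Hist1h2ac (ENSMUSG00000069270, an H2A gene) lies at chr13:23681467-23683948 on the minus strand. Hist1h2bc (ENSMUSG00000018102, an H2B gene) lies at chr13:23684199-23692908 on the plus strand, Hist1h2bp (ENSMUSG00000069308, H2B) at chr13:21787461-21789213 on the plus strand and Hist3h2ba (ENSMUSG00000056895, H2B) at chr11:58948920-58949533 on the plus strand. Hist1h4i (ENSMUSG00000060639, an H4 gene) lies at chr13:22040636-22041362 on the minus strand and Hist1h4m (ENSMUSG00000069306, H4) at chr13:21811746-21812147 on the plus strand.

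The annotated gene ends differ among the members and decide how much of a polyadenylated transcript a count over the gene can include. In 22 members the gene model runs on for at least 100 bases past the stem-loop, and 10 of these passed the filter on low values described below. Hist1h1c runs on for 840 bases and Hist1h4i for 330 bases, and each has a poly-A signal hexamer (AATAAA or ATTAAA) in its last 40 bases. Another 22 members end near the stem-loop, and 10 of these passed. Hist1h4m stops 3 bases after it and Hist1h4n 31 bases after it, with no hexamer. For 13 members the model ends at the stop codon, and 4 of these passed, among them Hist1h2bn and Hist1h3i. A spliced model is given for 5 members, and 5 of these passed. Hist1h2bc is one of them, with 2 exons over chr13:23684199-23692908 and no stem-loop match. The last 5 members, of which 1 passed, have no stem-loop match and a model that ends beyond the stop codon. After the coding sequence, stop codon included, Hist2h2be, the one that passed, has 2195 bases and the others have 4 to 51. Levels per annotated length are therefore not on quite the same footing between members whose models end differently.

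The promoter windows of RefSeq (GRCm38.p6, from 250 bases before to 50 bases after the start) matched 62 members. A CCAAT box (CCAAT or ATTGG) lay in 53 of these windows, or 85.5%, against 37.9% of 27025 windows of all genes. It was in every H1, H2A, H2B and H3 window but in only 3 of 12 H4 windows. A TATAAA motif (or TTTATA) was in 35 windows, or 56.5%, against 14.2% of all. The octamer (ATTTGCAT or ATGCAAAT) was in 13 windows, against 1.75% of all windows, and these were 7 of 18 H2A and 6 of 16 H2B windows. The H1 box (AAACACA or TGTGTTT) was in 5 of 6 H1 windows, against 7.14% of all. The letters AGATAA (or TTATCT) were also in 13 of 62 windows, against 11.4% of all. These are matches of letters on either strand, allowed to overlap, and not measured binding sites. The windows are not separate cases. H2A and H2B genes of the divergent pairs described below share part of their windows, so the same motif can be counted for both partners. Copied genes such as Hist1h4m and Hist1h4n have near-identical windows.

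Stretches from 3 of these windows are printed, with motif letters in capitals. The first is the whole space between Hist1h2ac and Hist1h2bc, a pair transcribed away from each other with very different levels, and the others lie upstream of the most abundant member and of the member with the largest ratio of highest to lowest mouse among those at 0 in no library.

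Between Hist1h2ac and Hist1h2bc, chr13:23683949-23684198, strand of Hist1h2ac: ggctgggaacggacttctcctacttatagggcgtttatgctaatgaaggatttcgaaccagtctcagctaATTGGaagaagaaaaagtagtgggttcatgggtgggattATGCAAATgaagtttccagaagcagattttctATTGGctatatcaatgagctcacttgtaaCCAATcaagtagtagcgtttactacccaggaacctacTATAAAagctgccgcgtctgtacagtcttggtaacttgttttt

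Before Hist1h1c, chr13:23738557-23738806, plus strand: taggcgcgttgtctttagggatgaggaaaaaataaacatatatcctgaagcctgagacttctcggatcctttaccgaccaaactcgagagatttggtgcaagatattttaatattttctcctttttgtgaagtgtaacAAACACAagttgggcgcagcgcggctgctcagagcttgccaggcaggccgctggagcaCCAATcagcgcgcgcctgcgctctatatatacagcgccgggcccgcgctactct

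Before Hist3h2ba, chr11:58948661-58948910, plus strand: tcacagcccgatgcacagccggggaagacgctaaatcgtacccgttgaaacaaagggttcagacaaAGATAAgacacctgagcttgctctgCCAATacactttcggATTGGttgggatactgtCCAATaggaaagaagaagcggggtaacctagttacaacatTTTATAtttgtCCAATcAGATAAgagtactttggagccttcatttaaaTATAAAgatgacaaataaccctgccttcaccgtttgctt

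The shared stretch held 3 CCAAT boxes, 1 octamer and 1 TATAAA. The stretch before Hist1h1c held 1 CCAAT box and 1 H1 box. The stretch before Hist3h2ba held 4 CCAAT boxes, 2 TATAAA motifs and 2 AGATAA motifs.

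The libraries held 9156431 to 14058050 fragments, of which hemoglobin took 26.5 to 62.2%, and the 67 members together took 2939 to 8986 fragments a library. Values are the authors' FPKM, fragments scaled for gene length and library size, with a further scaling factor for each library. One fragment on a gene of 500 bases was worth 0.0755 to 0.413 FPKM, depending on the library. Ifnar1 itself was higher in the 13 mice labelled Ifnar1-/- (18.1 ± 2.76 FPKM, mean ± SD) than in the 27 Ifnar1+/+ mice (8.36 ± 1.01), so the whole-gene value does not show loss of the transcript and the genotype is given as labelled. Mitochondrial transcripts took less than 1.2% of the fragments other than hemoglobin in 7 libraries, namely Ifnar1+/+ PBS day 4 mice 1, 3 and 4, Ifnar1+/+ PBS day 6 mice 4 and 6, Ifnar1+/+ spermine day 6 mouse 2 and Ifnar1+/+ uninduced mouse 3. Calls of members and counts of marker genes in the comparisons they enter are also given without them. Nothing in the labels says more of how mice of a group differ, so p values measure the spread between the mice sampled.

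A few members made up nearly all of the signal. Over the 40 mice, Hist1h1c, which encodes a linker histone, had the highest mean, 144.5 FPKM, with a range of 65.1 to 278.0. The H2B gene Hist1h2bc followed with 106.0 FPKM (52.5 to 272.3) and the H4 gene Hist1h4m with 71.7 FPKM (26.0 to 161.4). These 3 genes held 72.6% of the summed FPKM of all members, and the first 5 genes held 85.5%. A mean of at least 1 FPKM was reached by 21 members, of at least 10 FPKM by 6 and of at least 100 FPKM by 2. A level of at least 1 FPKM in at least 3 libraries, the filter used for testing, was reached by 30 members. The other 37 had means of up to 0.403 FPKM, and 8 of them had no fragment in any library.

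By class, H2B genes held 33.7% of the summed FPKM, H1 genes 32.7% and H4 genes 28.3%. Such shares depend on annotated length. Hist1h1c (1560 bases) held 32.6% of the summed FPKM but 47.2% of the members' fragments. Hist1h4m (402 bases) held 16.2% of the summed FPKM but 6.41% of the fragments. H2A genes held 3.24% and H3 genes 2.07%. Of the linker histone genes only Hist1h1c passed the filter, out of 6. Among H2A genes 5 of 18 passed, with Hist1h2ac (6.15 FPKM) and Hist1h2ao (2.89 FPKM) highest. Among H2B genes 13 of 18 passed, and Hist1h2bn (25.7 FPKM) and Hist3h2ba (4.81 FPKM) followed Hist1h2bc. Among H3 genes 4 of 12 passed, led by Hist1h3i (5.31 FPKM). Among H4 genes 7 of 13 passed, and Hist1h4i (31.5 FPKM) and Hist1h4n (11.4 FPKM) followed Hist1h4m. The summed FPKM of H2A and of H3 genes was thus far below that of H2B and of H4 genes. Of the 30 members that passed, 19 had at least 1 fragment in every library.

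**Figure D1:**
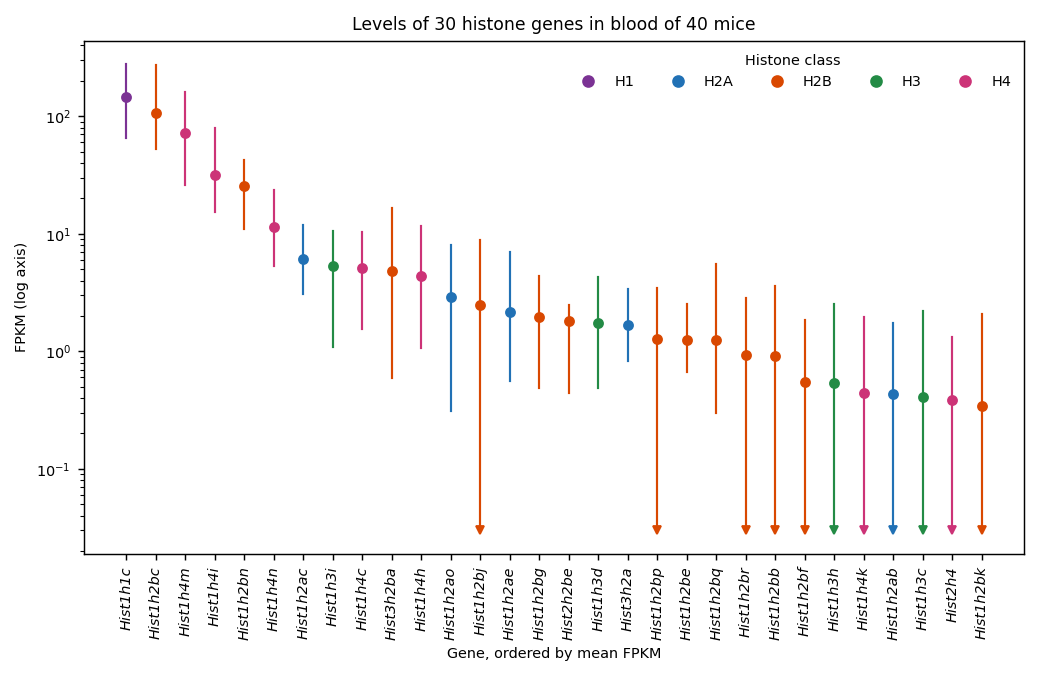
Mean FPKM over 40 mice (points, log axis) and the range from the lowest to the highest mouse (lines) of the 30 histone genes that passed the filter, coloured by histone class; arrowheads mark genes at 0 in at least 1 mouse. The means fall from 144.5 FPKM for Hist1h1c to 0.344 FPKM for Hist1h2bk.

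The order of the first members was kept in most mice. Hist1h1c was above Hist1h2bc in 36 of 40 mice, Hist1h2bc above Hist1h4m in 34, and Hist1h4m above Hist1h4i in 37. Hist1h4i and its neighbour Hist1h2bn were less far apart, with Hist1h4i above in 28 mice. Hist1h2bn was above Hist1h4n in 40 of 40 mice and Hist1h4n above Hist1h2ac in 39. From there on, neighbours overlapped: Hist1h3i was above Hist1h4c in 20 of 40 mice and Hist3h2ba above Hist1h4h in 21. Their order by mean is no guide to the order in one mouse.

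Many H2A and H2B genes lie in pairs whose starts face away from each other, and 12 such pairs with at most 500 bases between them were found. The space between Hist1h2ac and Hist1h2bc, printed above, has 250 bases. Hist1h2bc was above Hist1h2ac in 40 of 40 mice, by 8.98 to 38.6 times in FPKM, with a median of 18.4. This ratio depends on annotated lengths of 1156 bases for Hist1h2bc and 2482 for Hist1h2ac. As fragments over all libraries they had 52763 and 7170. Hist1h2bn stood at 25.7 FPKM beside 0.170 FPKM for its partner Hist1h2ak, and Hist2h2be at 1.82 FPKM beside Hist2h2ac, which had 1 fragment in all 40 libraries together. Hist1h2ae (2.16 FPKM) and Hist1h2bg (1.95 FPKM) had similar means, and Hist1h2ae was the higher of them in 18 of 40 mice. The H2B gene had the higher mean in 9 of the 11 pairs that gave any fragments and the H2A gene in 2. Several of these pairs rest on few fragments. Hist1h2bl (0.136 FPKM) and Hist1h2ai (0.0915 FPKM) had 29 and 18 fragments over all libraries, and each was the higher in 11 of 40 mice. The twelfth pair, Hist1h2ba and Hist1h2aa, which are known for expression in the testis, was at 0 in every library.

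**Figure D2:**
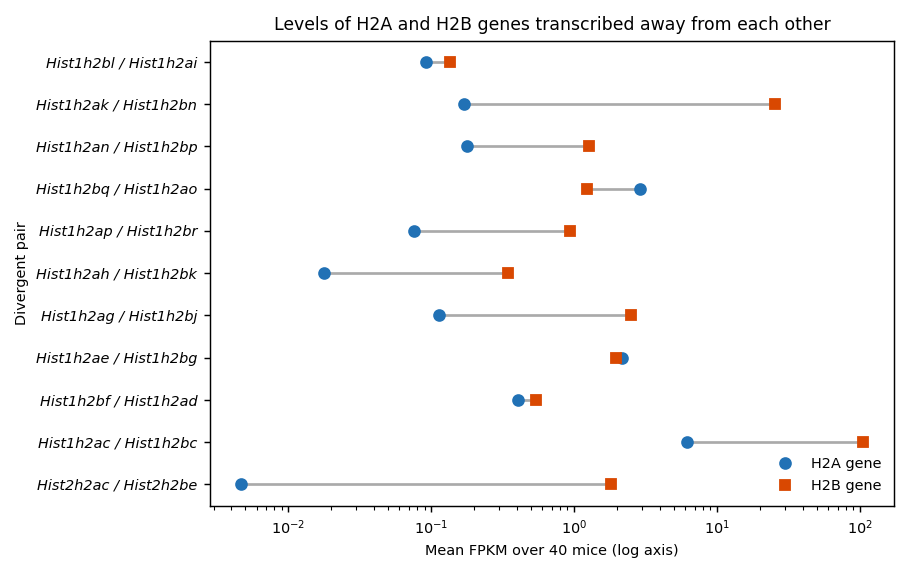
Mean FPKM over 40 mice (log axis) of the H2A gene (circle) and the H2B gene (square) in each of 11 divergent pairs; a line joins the partners. The H2B gene is the higher in 9 pairs, several of which rest on few fragments, and Hist1h2ae and Hist1h2bg lie closest together.

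Several members are near-identical copies, and the deposited values cannot say how shared fragments were assigned. Stretches of 100 bases were taken from the longest annotated transcript of each member, which for Hist1h2bp is a spliced one of 621 bases without a stem-loop match. Of these stretches, 94.9% occurred in no other gene for Hist1h1c, 95.1% for Hist3h2ba, 84.9% for Hist1h4i, 74.6% for Hist1h2bc and 65.3% for Hist1h2bp. For Hist1h4m this share was only 11.9% and for Hist1h4n 19.3%, each sharing 267 stretches with the other. Their promoter windows differed at 1 of 299 aligned bases. The levels of Hist1h4m and Hist1h4n are therefore uncertain singly. In Hist1h2ao the unique share was 7.35% and in Hist1h2bq 5.43%. No unique stretch was found in 5 members, and all 5 were among the 8 members at 0 in all libraries. Hist3h2a also overlaps Trim17, and Hist1h2be overlaps Hist1h1e. Every H2A member overlaps another annotated gene, in most cases a miRNA gene on the opposite strand. Among H2B members only Hist1h2be and Hist2h2bb overlap one. Of the members at 0 in all libraries, all but Hist1h2ba overlap another gene. The sources used here do not say whether counting used strand. The part of such overlaps in the low H2A values and in the values at 0 was not tested.

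Changes between groups were tested for 12 pairs of groups and 4 differences between such changes, on log2(FPKM + 1) with limma over 11829 genes. A change was called where its p, adjusted by Benjamini and Hochberg's method, was under 0.05. Counts of members at an unadjusted p under 0.05 are given without the share of all genes at that p, and are not calls. Folds on this scale understate changes of low genes. The 30 members that passed the filter gave 11 calls in 4 of the 12 comparisons, from 7 genes. In bulk blood, fewer cells of a type and less RNA per cell cannot be told apart.

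**Figure D3:**
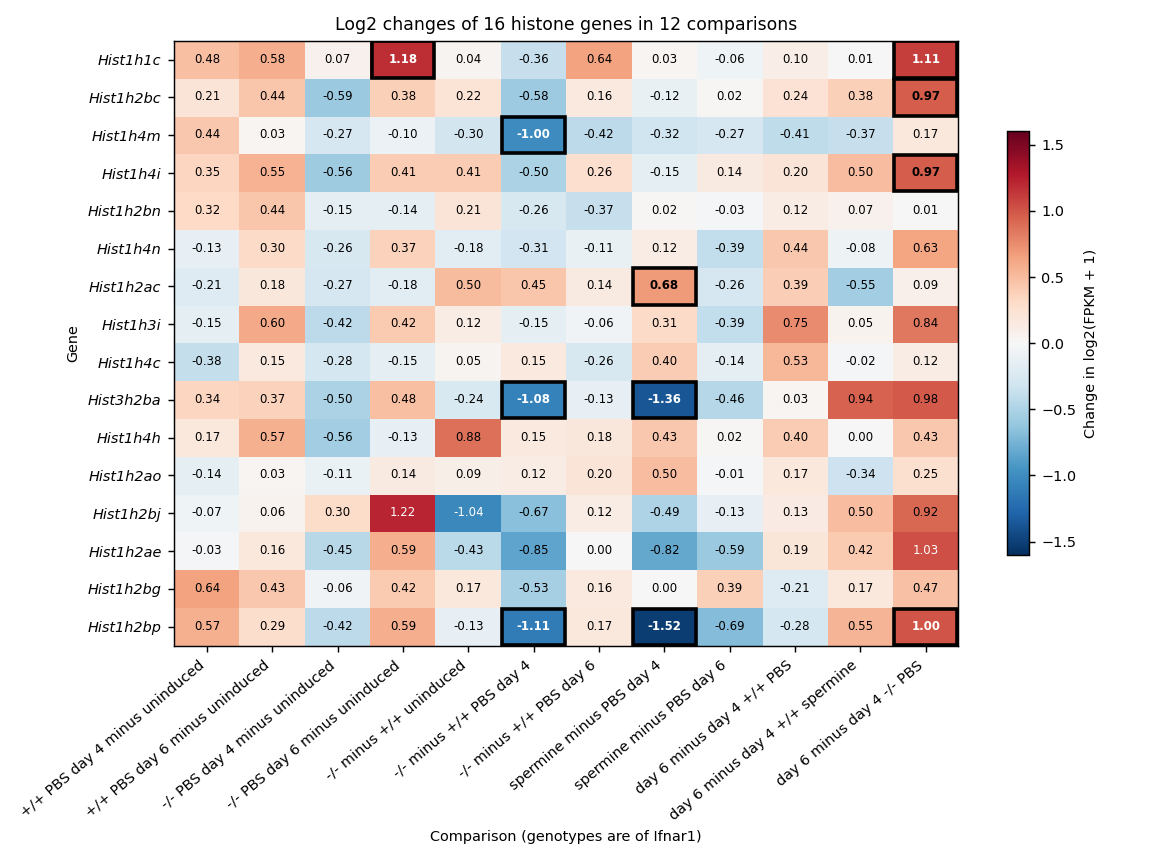
Change in log2(FPKM + 1) (colour and number) of 16 histone genes, namely the 15 highest by mean and Hist1h2bp, in 12 comparisons; frames mark limma adjusted p under 0.05. The 11 framed changes lie in 4 comparisons, with negative values on day 4 for the genotype comparison and both signs for spermine; with a fixed total of fragments, hemoglobin included, the framed changes of Hist1h4m, Hist1h2bc and Hist1h4i turn sign.

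In Ifnar1+/+ mice no member was called for pristane. On day 4 against uninduced mice 0 of 30 members were called, beside 2.10% of all genes tested, and 2 members had an unadjusted p under 0.05. Of the log2 changes 15 were above 0 and 15 below. On day 6 again 0 of 30 were called, beside 8.17% of all genes, and 3 had an unadjusted p under 0.05. Without uninduced mouse 2, 1 member was called. The median log2 change was 0.29, and 25 of 30 members lay above 0, beside a median of 0.02 over all genes. Hist1h1c was at 65.1, 103.3 and 132.8 FPKM in the 3 uninduced mice, at 93.3 to 190.4 (median 138.7) on day 4 and at 95.0 to 239.7 (median 135.0) on day 6, so that the groups overlapped. Its log2 changes were 0.48 ± 0.32 (SE) and 0.58 ± 0.32, with adjusted p = 0.535 and 0.275. With voom on fragments recovered from the values, chosen after the data had been seen, the counts of members called were 0 and 0 as well.

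In mice labelled Ifnar1-/-, the linker histone gene Hist1h1c rose by day 6 of pristane. It was at 143, 78.3 and 87.0 FPKM in the uninduced mice. On day 4 it was at 164, 93.0, 86.6, 80.6 and 115 FPKM, and on day 6 at 193, 184, 235, 278 and 251 FPKM. Every day 6 mouse was above every mouse of the other 2 groups. Between day 6 and uninduced mice 20.8% of all genes were without overlap, and 2 of 30 members. Between day 6 and day 4 these were 8.30% of all genes and 4 of 30 members. Against uninduced mice the log2 change of Hist1h1c on day 6 was 1.18 ± 0.33 (adjusted p = 0.0139), from 103 ± 34.9 to 228 ± 39.6 FPKM (mean ± SD). It was the only member called of 30, beside 11.8% of all genes (8.57% higher and 3.19% lower), and 2 members had an unadjusted p under 0.05. The call held under 8 other settings, the fixed totals included (log2 changes of 0.66 and 0.79). Without uninduced mouse 2 or uninduced mouse 3 the call was lost, with log2 changes of 1.01 to 1.09 and adjusted p = 0.0811 to 0.111. Without uninduced mouse 1 or day 6 mouse 2, the count of members called was 2. On day 4 against uninduced mice 0 of 30 members were called, beside 8.12% of all genes, with 1 member at an unadjusted p under 0.05.

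Between day 4 and day 6 in mice labelled Ifnar1-/-, 4 members rose, and none fell. Of all genes tested 6.21% were called, 5.75% higher and 0.465% lower. Hist1h1c changed by 1.11 ± 0.28 (log2 ± SE, adjusted p = 0.0113), with the same day 6 mice as in the comparison with uninduced mice. The H2B gene Hist1h2bc was at 105, 56.8, 54.4, 52.5 and 71.9 FPKM on day 4 and at 144, 93.8, 102, 172 and 154 FPKM on day 6. Day 4 mouse 1 lay above day 6 mice 2 and 3, and the other day 4 mice lay below every day 6 mouse. Its log2 change was 0.97 ± 0.27 (adjusted p = 0.0221). The H4 gene Hist1h4i was at 28.8, 16.7, 18.6, 15.3 and 24.3 FPKM on day 4 and at 46.6, 30.2, 37.1, 49.5 and 41.8 FPKM on day 6, with no overlap. Its log2 change was 0.97 ± 0.25 (adjusted p = 0.0129). Hist1h2bp, another H2B gene with 1 to 18 fragments a library in these mice, was at 1.38, 0.725, 0.284, 0.0658 and 0.412 FPKM on day 4 and at 1.16, 2.19, 1.19, 3.31 and 2.92 FPKM on day 6. Day 4 mouse 1 lay above day 6 mice 1 and 3 and the other day 4 mice below every day 6 mouse, and the log2 change was 1.00 ± 0.25 (adjusted p = 0.0103). In contrast, Hist1h4m, at 37.3 to 74.8 FPKM on day 4 and 39.8 to 73.5 on day 6, had a log2 change of 0.17 and was not called. The median over 30 members was 0.35, beside -0.04 over all genes, and 28 of 30 lay above 0. An unadjusted p under 0.05 was found for 11 members.

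These rises depended on how libraries were scaled. With a fixed total of fragments, hemoglobin included, the median gene fell by 0.73 on the log2 scale between these days, Hist1h1c was at 0.05, Hist1h2bc at -0.08 and Hist1h4i at -0.05, and none of these was called, whereas Hist1h2bp was at 0.55 and kept its call. Relative to the median gene they were at 0.78, 0.65, 0.67 and 1.28, and as deposited at 1.15, 1.01, 1.01 and 1.04. The 8 members called under that scaling comprised 1 higher and 7 lower. Without the share of all genes called there, which is not given, these counts cannot be read as particular to the members. A fixed total of FPKM without hemoglobin left Hist1h2bc at 0.25 (adjusted p = 0.187) and Hist1h4i at 0.27 (adjusted p = 0.215), neither called. The call of Hist1h2bc was also lost without filtering and without day 4 mouse 2, 3 or 4 or without day 6 mouse 1, 4 or 5 (log2 changes of 0.87 to 0.93, adjusted p = 0.0520 to 0.0780). Without day 4 mouse 4, Hist1h4i was at 0.88 (adjusted p = 0.0543), Hist1h2bp at 0.88 (adjusted p = 0.0510), and 1 member was called in place of 4. These mice share no library with those of low mitochondrial share, but without the latter, whose spread the fit also uses, 7 members were called. The share of all genes called then is not given.

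Markers of red cells and platelets were also higher on day 6. Of 14 erythroid genes tested, 13 were higher on day 6 than on day 4 in mice labelled Ifnar1-/- (median log2 change 2.01), and their summed level was 14250 to 38505 FPKM against 5286 to 14400. No erythroid marker was at 0 in any library. Of 9 platelet genes 8 were higher (median 1.07), at a summed 1688 to 2501 FPKM against 711 to 1582. Of 18 genes of DNA replication and mitosis 5 were higher and none lower, for example the cyclin gene Ccna2 (1.72 ± 0.37, adjusted p = 0.00293) and the proliferation marker Mki67 (0.75 ± 0.19, adjusted p = 0.0113). Against uninduced mice on day 6, 9 of 14 erythroid, 5 of 9 platelet and 3 of 18 replication and mitosis genes were higher and none lower. Of 13 neutrophil genes 13 were then higher and of 8 B cell genes 5 lower, whereas between day 4 and day 6 no neutrophil gene and 1 B cell gene, lower, was called. On the fixed total of fragments, where the median of all genes was -0.73, 12 of 14 erythroid genes stayed called higher, 0 of 9 platelet genes were called, and Mki67 was at 0.04. Called lower on that total were 11 of 16 replication and mitosis genes (2 were higher), 12 of 13 neutrophil, 8 of 8 B cell and 8 of 8 T cell genes. Against uninduced mice, the same total left 8 erythroid, 11 neutrophil and 2 replication and mitosis genes higher and no platelet or B cell gene called. The part of these cells in the histone changes was not tested.

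Genotype was compared at each stage. In uninduced mice 0 of 30 members were called, beside 0.406% of all genes, with 4 at an unadjusted p under 0.05. On day 6 again 0 of 30 were called, beside 3.20% of all genes, with 4 at an unadjusted p under 0.05. On day 4 of pristane the mice labelled Ifnar1-/- had 3 of 30 members called lower and none higher than the Ifnar1+/+ mice. Of all genes 18.5% were called, 9.26% lower and 9.23% higher. The median over 30 members was -0.24, beside 0.00 over all genes, and 9 members had an unadjusted p under 0.05.

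The 3 members lower on day 4 were 1 H4 gene and 2 H2B genes. Hist1h4m was at 74.8, 40.1, 37.3, 43.6 and 49.9 FPKM in mice labelled Ifnar1-/- and at 72.3 to 161.4 (median 89.7) in Ifnar1+/+ mice. Only mouse 1 of the first group reached the lowest values of the second, and the log2 change was -1.0 ± 0.31 (adjusted p = 0.0195). Hist3h2ba was at 2.85, 2.43, 1.88, 1.97 and 2.37 FPKM against 3.02 to 10.7 (median 5.44), with no overlap. Its log2 change was -1.08 ± 0.38 (adjusted p = 0.0401). Between these groups 1 of 30 members was without overlap, beside 11.3% of all genes. Hist1h2bp, with day 4 values as given above, stood against 0.684 to 3.48 FPKM (median 2.69), and only mouse 1 and mouse 2 labelled Ifnar1-/- were above the lowest Ifnar1+/+ mouse. Its log2 change was -1.11 ± 0.24 (adjusted p = 0.00105). The day 4 mice labelled Ifnar1-/- are those of the comparison between days, so both rest on their values.

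These calls depended on which libraries entered and on scaling. Without the libraries of low mitochondrial share, which removes Ifnar1+/+ PBS mice 1, 3 and 4, no member was called: Hist1h4m was at -0.66 (adjusted p = 0.156), Hist3h2ba at -0.60 (adjusted p = 0.430) and Hist1h2bp at -0.74 (adjusted p = 0.0840). When fragments were set to a fixed total with hemoglobin, where the median gene was at 0.67, Hist1h4m was at 0.02 and Hist3h2ba at -0.27, neither called, and Hist1h2bp at -0.64 was called. Relative to that median they were at -0.66, -0.95 and -1.31. Under that scaling 12 members were called, 11 higher and 1 lower. The share of all genes called under that scaling is not given, so these counts cannot be read as particular to the members. A fixed total of FPKM without hemoglobin, where the median gene was at 0.43, left Hist1h4m at -0.34 (adjusted p = 0.319) and Hist3h2ba at -0.56 (adjusted p = 0.0867). Neither was called there, whereas Hist1h2bp at -0.79 was called (adjusted p = 0.00416). Without Ifnar1+/+ mouse 1 or labelled Ifnar1-/- mouse 3, Hist1h4m was at -0.91 to -0.85 (adjusted p = 0.0618 to 0.0655), and 1 member was called in place of 3, whereas 5 were called without labelled Ifnar1-/- mouse 1. Hist3h2ba lost its call without Ifnar1+/+ mouse 1, 3 or 4 or labelled Ifnar1-/- mouse 2, 3, 4 or 5 (-1.10 to -0.93, adjusted p = 0.0634 to 0.111), and likewise without filtering.

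Other cell markers moved with genotype on day 4 as well. Of 14 erythroid genes 12 were lower in mice labelled Ifnar1-/- (median -1.87, summed level 5286 to 14400 FPKM against 17049 to 54302). Of 9 platelet genes 5 were lower, and of 13 neutrophil genes 13 were higher (median 1.83). Of 8 B cell genes 4 were lower, of 8 T cell genes 2 were higher and 1 lower, and of 4 genes of antibody-secreting cells 2 were higher and 1 lower. On that fixed total, 11 erythroid genes stayed lower and 13 neutrophil genes higher, whereas 2 platelet, 6 B cell, 8 T cell and 4 of 5 antibody-secreting cell genes were called higher and none lower. Leaving out libraries of low mitochondrial share, 5 erythroid and 2 B cell genes were lower, 10 neutrophil genes were higher, and no platelet, T cell or antibody-secreting cell gene was called. Their part in the histone values was not tested.

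Spermine before pristane went with lower Hist1h2bp and Hist3h2ba and with higher Hist1h2ac on day 4. Of 30 members 3 were called, beside 9.13% of all genes. Of these 1 was higher, beside 2.65% of all genes, and 2 were lower, beside 6.48%. The median over the members was -0.03, beside 0.01 over all genes, and 4 members had an unadjusted p under 0.05. Between the groups 2 of 30 members were without overlap, beside 5.01% of all genes. The PBS mice are the same as in the genotype comparison on day 4, so the lower values of Hist1h2bp and Hist3h2ba in both comparisons share their controls.

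Hist1h2bp was at 0 to 0.267 FPKM (median 0.191) in spermine mice, against 0.684 to 3.48 (median 2.69) in PBS mice, with no overlap. As fragments this was 0, 2, 0, 3, 5 and 3 in spermine mice 1 to 6 and 10, 14, 15, 17, 17 and 5 in PBS mice 1 to 6, so the numbers behind the gene are small. The log2 change was -1.52 ± 0.23 (adjusted p = 1.47e-05). It was called under all 8 other settings and without each of the 12 mice in turn, with adjusted p of at most 0.00463 and 0.00011. Leaving out the libraries of low mitochondrial share gave -1.14.

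Hist3h2ba was at 0.589 to 2.61 FPKM (median 1.81) in spermine mice and at 3.02 to 10.7 (median 5.44) in PBS mice, again without overlap. Its log2 change was -1.36 ± 0.36 (adjusted p = 0.00929). The call was lost only without the libraries of low mitochondrial share (-0.88, adjusted p = 0.216), among 8 settings and 12 mice left out. As fragments, Hist3h2ba was at 5 to 24 in spermine mice and 18 to 44 in PBS mice, and these overlapped. With a fixed total of fragments with hemoglobin it was -0.57, beside a median of 0.70 over all genes.

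Hist1h2ac, an H2A gene, was at 4.63 to 11.8 FPKM (median 7.14) in spermine mice and at 3.06 to 6.61 (median 3.95) in PBS mice, and the groups overlapped. Its log2 change was 0.68 ± 0.20 (adjusted p = 0.0258). The call was lost without PBS mouse 3, 4 or 5 or spermine mouse 1 or 3 (0.56 to 0.67, adjusted p = 0.0552 to 0.0926), and likewise without filtering, in a fit of only these groups, and when libraries of low mitochondrial share were left out (0.67, adjusted p = 0.136). Its divergent partner Hist1h2bc, at 66.8 to 131.6 FPKM against 74.9 to 133.3, had a log2 change of -0.12 and was not called.

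**Figure D4:**
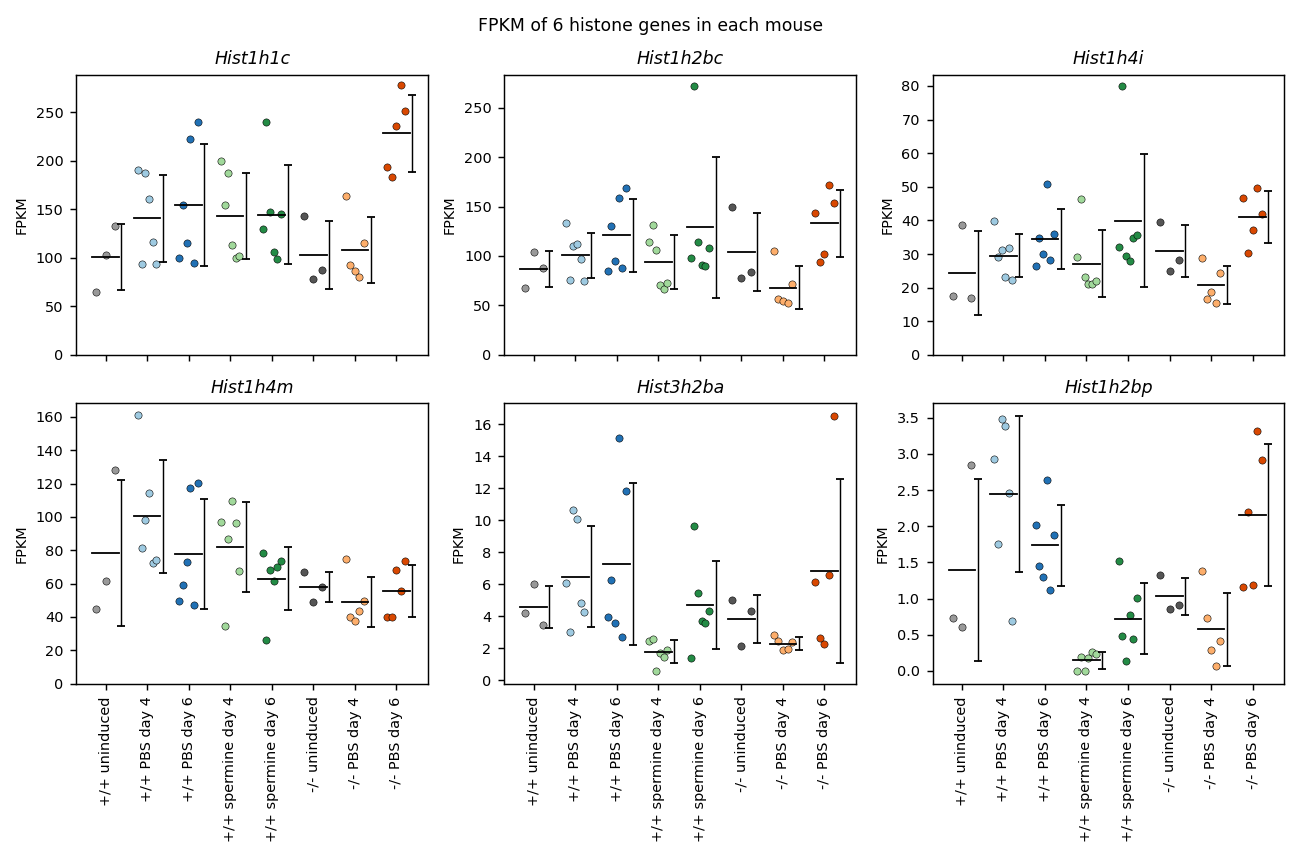
FPKM of 6 histone genes in each mouse (points) by group, with the group mean (horizontal line) and SD (bar at the right of each group); genotypes are of Ifnar1, with -/- as labelled. Hist1h1c has its highest group mean on day 6 in mice labelled -/-, at 184 to 278 FPKM, and Hist1h2bp has its lowest on day 4 after spermine, at 0 to 0.267 FPKM.

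The whole group of members looked different when set against fragments than when set against the authors' scaling. On day 4 the summed FPKM of all 67 members was 336 to 556 in spermine mice and 344 to 661 in PBS mice. As a share of fragments other than hemoglobin, the members took 0.0904 to 0.142% in spermine mice and 0.0618 to 0.0751% in PBS mice, with no overlap. Under fixed totals the count of members called was 18 (16 higher and 2 lower) without hemoglobin and 19 (17 higher and 2 lower) with it, but the median of all genes also moved, to 0.51 and 0.70. Shares of all genes called under these totals are not given, so the counts cannot be read as particular to the members. Hist1h2bp and Hist3h2ba were the 2 lower members under each of these scalings.

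Markers moved here too. Of 14 erythroid genes 12 were lower after spermine on day 4 (median -2.64), with a summed level of 3517 to 9064 FPKM against 17049 to 54302. Of 9 platelet genes 0 were called, of 13 neutrophil genes 9 were higher and 2 lower, of 8 B cell genes 1 was lower, of 8 T cell genes 0 were called, and of 4 genes of antibody-secreting cells 1 was lower. Mitochondrial transcripts took 1.44 to 2.53% of fragments other than hemoglobin in spermine mice and as little as 0.880% in PBS mice. With a fixed total of fragments with hemoglobin, 11 erythroid genes stayed lower, 10 neutrophil genes were higher and 1 lower, and 9 of 9 platelet, 8 of 8 B cell, 8 of 8 T cell and 3 of 5 antibody-secreting cell genes were called higher. Leaving out libraries of low mitochondrial share, 11 erythroid genes were lower, 4 neutrophil genes were higher and 3 lower, and no platelet, B cell, T cell or antibody-secreting cell gene was called. The part of these in the histone values was not tested.

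Between spermine and PBS mice of day 6, 0 of 30 members were called, beside 0.0423% of all genes, with 3 at an unadjusted p under 0.05. The smallest adjusted p, 0.0861, was that of the H2B gene Hist1h2bb (-0.94 ± 0.29), and without PBS mouse 5, 1 member was called. Hist1h2bp was at 0.136 to 1.51 FPKM (median 0.626) after spermine and at 1.12 to 2.64 (median 1.66) after PBS. Between day 4 and day 6, 0 of 30 members were called in Ifnar1+/+ PBS mice, beside 0.473% of all genes, and 0 of 30 in spermine mice, beside 0.617%, with 4 members at an unadjusted p under 0.05 in each.

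The difference between genotypes in the change from day 4 to day 6 was tested itself. Hist1h2bp was called, as 1 of 30 members beside 1.67% of all genes (1.09% higher and 0.583% lower), with a difference of 1.29 ± 0.34 (adjusted p = 0.0445): it had a higher mean on day 6 than on day 4 in mice labelled Ifnar1-/- (2.16 against 0.573 FPKM) and a lower one in Ifnar1+/+ PBS mice (1.73 against 2.45 FPKM). The call was lost without any one of 13 of the 22 mice (1.16 to 1.33, adjusted p = 0.0573 to 0.115), namely Ifnar1+/+ day 4 mice 1, 3 and 4, Ifnar1+/+ day 6 mice 1, 2, 3 and 5, labelled Ifnar1-/- day 4 mice 2, 3, 4 and 5 and labelled Ifnar1-/- day 6 mice 4 and 5. Without Ifnar1+/+ day 4 mouse 5 or 6 or Ifnar1+/+ day 6 mouse 4, 2 members were called. It was also lost under 5 of 8 other settings: the replicate block, no filter, the smaller pseudocount of 0.1, the fit without the other groups, and the omission of libraries of low mitochondrial share. For the genotype difference in the pristane change on day 4 and on day 6, and for the difference between days in the spermine change, 0 of 30 members were called, beside 0.254%, 0.0254% and 0.0169% of all genes, with 2 members at an unadjusted p under 0.05 in each. For the genotype difference in the change from day 4 to day 6 there were 5 such members.

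Among genes related to the members, histone genes that are expressed outside S phase were also followed. Of 9 tested, 2 were lower on day 4 after spermine: H3f3a, which encodes a replacement histone of the H3 class (-1.82 ± 0.30, adjusted p = 4.39e-05), and H2afj, a variant H2A gene (-0.99 ± 0.29, adjusted p = 0.0212). In the genotype comparison on day 4, H3f3a was lower (-1.35 ± 0.32, adjusted p = 0.00216), while H3f3b, which encodes the same protein (0.49 ± 0.18, adjusted p = 0.0490), and the linker histone gene H1f0 (0.76 ± 0.23, adjusted p = 0.0168) were higher. H3f3a had a mean of 199 FPKM over the 40 mice, above that of every member. Between day 4 and day 6 in mice labelled Ifnar1-/-, H3f3a was the 1 gene of the list that was called (1.24 ± 0.33, adjusted p = 0.0152). Scaled to a fixed total of fragments with hemoglobin, H3f3a kept these signs at -0.78, -0.33 and 0.19, of which only the first was called, whereas H2afj after spermine stood at 0.00 and was not called. On that total the list had 7 genes higher and 1 lower after spermine, 8 higher and 0 lower by genotype on day 4, and 0 higher and 7 lower between days, beside medians of all genes of 0.70, 0.67 and -0.73. When libraries of low mitochondrial share were left out, the list had 0 calls by genotype on day 4 and 1 after spermine, lower.

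Of 12 tested genes that process histone transcripts 0 were called after spermine on day 4 in the values as deposited. All 12 were called higher there with a fixed total of FPKM without hemoglobin (median 0.54, all genes 0.51) and with that of fragments (0.74, all genes 0.70), and 0 when libraries of low mitochondrial share were left out. In the genotype comparison on day 4, 1 was higher, the Sm-like gene Lsm10 (0.87 ± 0.26, adjusted p = 0.0183), and 3 were lower, namely Eri1, an exonuclease gene of the histone transcript end (-0.36 ± 0.10, adjusted p = 0.00856), and the cleavage factor genes Cpsf2 (-0.32 ± 0.10, adjusted p = 0.0303) and Cstf2 (-0.27 ± 0.09, adjusted p = 0.0423). The last 3 changed sign with a fixed total of fragments with hemoglobin, to 0.35, 0.55 and 0.43, where 11 of the 12 genes were called higher and none lower, and none of the 4 was called when libraries of low mitochondrial share were left out. Slbp, with a mean of 2.11 FPKM, was not called in either comparison as deposited, but was higher in both under the total of fragments (0.81 and 0.72). Of 18 replication and mitosis genes 7 were lower after spermine on day 4, with Ccna2 at -2.16 ± 0.34 (adjusted p = 2.02e-05), and 5 were lower in the genotype comparison on day 4, with Ccna2 at -1.60 ± 0.35 (adjusted p = 0.00119). Ccna2 stayed lower in both with a fixed total of fragments with hemoglobin, at -1.48 and -0.85, but of the 16 genes tested there 11 were higher in each, and 3 and 1 were lower. Leaving out libraries of low mitochondrial share, 4 were lower after spermine and 0 were called by genotype. The PBS mice are again the same in both.

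In 2 single mice Hist1h4m was low for the group while the other abundant members Hist1h2bc and Hist1h4i were high. After spermine, mouse 2 of day 6 had 272.3 FPKM of Hist1h2bc and 80.0 FPKM of Hist1h4i, the highest of all 40 mice for both, but 26.0 FPKM of Hist1h4m, the lowest of all. The other 5 mice of its group had 89.4 to 114.4 FPKM of Hist1h2bc, 27.9 to 35.7 of Hist1h4i and 61.5 to 78.3 of Hist1h4m. Mouse 2 of the spermine day 4 group likewise had the highest Hist1h2bc (131.6 FPKM) and Hist1h4i (46.4 FPKM) and the lowest Hist1h4m (34.6 FPKM) of its group. The ratio of Hist1h2bc to Hist1h4m was 10.5 in the first of these mice and 3.80 in the second, the highest 2 of all 40. In the other mice it ran from 0.648 (spermine day 4 mouse 4) to 3.59 (day 6 mouse 1 labelled Ifnar1-/-). The 2 genes thus did not keep a fixed ratio elsewhere either. These mice were picked after their values had been seen, no test was made, and the labels do not say whether the shared number 2 means anything. The first of them is among the libraries of low mitochondrial share. Only 11.9% of the 100-base stretches of Hist1h4m are unique, so its level is uncertain singly.

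**Figure D5:**
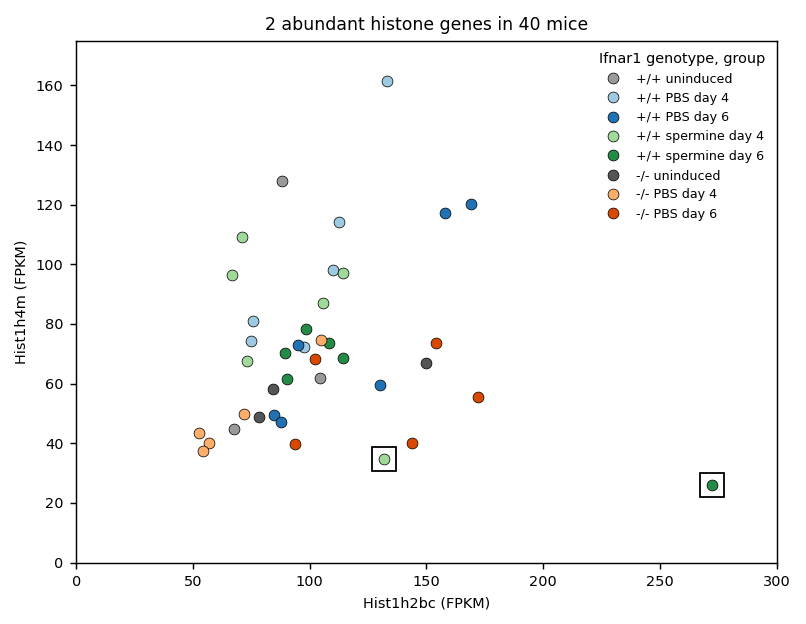
FPKM of Hist1h4m against Hist1h2bc in each of 40 mice, coloured by group; squares mark mouse 2 of the spermine groups on day 4 and day 6. The 2 marked mice lie at 131.6 and 272.3 FPKM of Hist1h2bc with 34.6 and 26.0 FPKM of Hist1h4m.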

How the data were processed

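The authors deposited a table of FPKM for 54532 genes in 40 libraries, made from RNA selected on poly-T beads per the labels' protocols. Named in the submitters' processing notes are DESeq2 1.20.0, HISAT2 2.0.5, featureCounts 1.5.0-p3, CASAVA 1.8 and fastp, and the build GRCm38 (mm10). Which of these made which step, and how fragments that match several genes were counted, is not known from these notes. Whole fragments could be recovered from 100% of the nonzero deposited FPKM within a tolerance of 0.001, and the totals implied by the values differ from the counted totals by a factor for each library. Members and gene lists were chosen with earlier results of these data known.

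Tests used the 11829 genes with 1 FPKM in 3 libraries or more. In R 4.3.3, limma 3.58.1 fitted log2(FPKM + 1) over all 8 groups together, with a trended prior, and p values were adjusted by Benjamini and Hochberg over all genes of a contrast. The fit was tested on simulated data. Members were named where called or among the 15 highest by mean, and at most 4 genes of another list by smallest p in a contrast. Members outside this rule (pair partners, overlapping or copied genes, Hist1h2bb, Hist1h2bk) and Slbp were named after their values were seen. The alternatives were fixed totals without and with hemoglobin, a pseudocount of 0.1, no filter, only the groups compared, a replicate block, voom on recovered fragments, and leaving out each mouse or 7 libraries of low mitochondrial share. After seeing the data, 3 of these were added: the omission of the 7 libraries, the total with hemoglobin, and voom. Gene coordinates equal GENCODE M21 for 67 of 67 members. Depth limits low members, where 1 fragment is a large step. Sequence searches and plots used matplotlib 3.10.9, numpy 2.4.6, pandas 2.3.3 and Python 3.11.15.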

Additional observations from a re-analysis of the deposited data

Results flagged for a closer look

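In 96 sets of values (16 members in 6 groups of 5 or 6 mice), 6 single values stood apart from their group on the log2 scale by Dixon's test at 95%. Some of them came from the same mouse. Chance gives about 1 in 20, so 6 of 96 is near what chance gives. Mouse 2 of the spermine day 6 group stood apart for 3 members: it was highest for Hist1h2bc (272.3 FPKM, the others 89.4 to 114.4) and Hist1h4i (80.0 FPKM, the others 27.9 to 35.7) and lowest for Hist1h4m (26.0 FPKM, the others 61.5 to 78.3). Of the 100-base stretches of Hist1h4m, 11.9% are unique. Mouse 1 of the group labelled Ifnar1-/- on day 4 stood apart for Hist1h3i (8.28 FPKM, the others 2.32 to 2.83) and Hist1h2ae (2.21 FPKM, the others 0.578 to 0.784). Mouse 1 of the Ifnar1+/+ PBS day 4 group stood apart for Hist1h2ao (7.75 FPKM, the others 1.02 to 1.92), a member of which 7.35% of the 100-base stretches are unique. One member differed between genotypes in its change from day 4 to day 6, namely Hist1h2bp (1.29 on the log2 scale, adjusted p = 0.0445 by limma). That call was lost without any one of 13 of the 22 mice and under 5 of 8 other settings. No cause of any of these was tested.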

How the results depend on the processing

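Counts of members called changed most with scaling. They are given without the share of all genes called under the same setting, so they cannot be read as particular to the members. With a fixed total of FPKM without hemoglobin, 3 members were called in place of 1 for day 6 against uninduced mice labelled Ifnar1-/-, 5 in place of 3 for genotype on day 4, 18 in place of 3 for spermine on day 4, 1 in place of 0 between days after spermine, and 6 in place of 1 for the genotype difference between days. With a fixed total of fragments with hemoglobin these counts were 1 in place of 0 for day 4 against uninduced mice labelled Ifnar1-/-, 12 for genotype on day 4, 19 for spermine on day 4, 5 in place of 0 for spermine on day 6, 1 between days after spermine, 8 in place of 4 between days in mice labelled Ifnar1-/-, 1 in place of 0 for the difference between days in the spermine change, and 10 for the genotype difference between days. Under this scaling 3 changes reversed: Hist1h4m to 0.0177 for genotype on day 4, and Hist1h2bc to -0.0815 and Hist1h4i to -0.0549 between days in mice labelled Ifnar1-/-. Without the libraries of low mitochondrial share, 2 members were called for day 6 against uninduced mice labelled Ifnar1-/-, 0 for genotype on day 4, 1 in place of 0 for genotype on day 6, 1 for spermine on day 4, 7 between days in mice labelled Ifnar1-/- and 0 for the genotype difference between days. A pseudocount of 0.1 and the absence of a filter each gave 2 for day 6 against uninduced mice labelled Ifnar1-/- and 0 for the genotype difference between days. A fit of only the groups compared gave 0 for that difference, and voom gave 2 for day 6 against uninduced mice labelled Ifnar1-/-.

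The labels do not say whether same-numbered mice share more than a number. In none of the 12 comparisons was the correlation of deviations over 0.1 in every pair of same-numbered mice (-0.365 to 0.691), and in 3 it was above 0 in every pair. Between days it was over 0.1 in 5 of 6 pairs after spermine (0.0496 to 0.691) and in 0 of 5 in mice labelled Ifnar1-/- (-0.0626 to 0.0718). These values cannot decide whether mice were paired. The replicate block gave 0 members in place of 1 for the genotype difference between days and took the call of Hist3h2ba for genotype on day 4. Leaving out single mice gave 0 to 2 members for day 6 against uninduced mice labelled Ifnar1-/-, 0 to 1 for day 6 against uninduced Ifnar1+/+ mice, 1 to 5 for genotype on day 4, 2 to 4 for spermine on day 4, 0 to 1 for spermine on day 6, 1 to 6 between days in mice labelled Ifnar1-/- and 0 to 2 for the genotype difference between days. Of all recomputed counts 276 stayed within 1.5 times and 52 did not, and of changes of single members 174 kept their call, 58 kept their direction without it and 3 reversed. The causes were not tested. Depth limits low members such as Hist1h2bp, with at most 18 fragments in any library.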
